A study of Mus musculus with 16 samples.

Results

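Vascular smooth muscle cells were selected on their own counts in single-cell libraries of the mouse cortex. A cell barcode with 200 to 7000 detected genes was taken as a member when its summed unique molecular identifiers (UMIs, each the count of 1 captured transcript) of Acta2, Myh11, Tagln and Myl9 came to 3 or more, and when it held at most 1 UMI of 9 genes of other cells (P2ry12, Cx3cr1, Aqp4, Gja1, Mag, Mog, Cldn5, Syt1 and Col1a2). In 14 libraries, 107 cells passed, of 24578 barcodes within the gene limits and of 48000 barcodes in all 16 tables. Because these measured values chose the members, the levels of the 4 gate genes are given as a description, with no test.

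The libraries were made by Drop-seq from dissociated cortex of 17-month-old mice, 1 library per mouse, although 1 animal number occurs in 2 titles (a WT male and a THY-Tau22 female, replicate 1 of each). THY-Tau22 mice carry human 4-repeat tau with the mutations G272V and P301S under a Thy1.2 promoter, which is active in neurons, whereas the cells described here are not neurons. They were heterozygous, on a C57Bl6/J background, and were compared with wild-type (WT) littermates. Among the males 3 WT and 3 THY-Tau22 mice were used here, and among the females 3 WT and 5 THY-Tau22 mice. A pair of male tables with opposite genotype labels (WT replicate 3, THY-Tau22 replicate 4) had 2952 of their 3000 barcodes in common, including 5 of the 6 smooth muscle cells under each label, and was left out. Replicate numbers follow the order of deposition and only name a mouse.

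Vascular smooth muscle cells wrap arteries and arterioles and set their diameter. They contract when calcium activates myosin light chain kinase, and they relax when nitric oxide raises cGMP. Pericytes, the other mural cells, sit on capillaries and are marked by Kcnj8, Abcc9 and Vtn.

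The 14 tables held 1041675 to 2237505 UMIs each. Smooth muscle cells contributed 2 to 13 cells and 2224 to 17422 UMIs per mouse, so that 1 UMI stood for 57.4 to 450 CPM, the level used below, which is a gene's UMIs per 1e+06 UMIs of a sum of cells. All intervals below cover counting error only. No barcode of a member occurred in another of the 14 tables. No doublet caller was run, and a doublet with another cell type could pass with 1 excluded UMI or with 0.

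The members held a median of 891 UMIs (279 to 3331) and 494 detected genes (203 to 1655). Myh11, the smooth muscle myosin heavy chain, was detected in 88 of 107 cells. Myl9, a regulatory myosin light chain, was detected in 82, Acta2, the smooth muscle actin, in 66, and Tagln, an actin-binding protein, in 34. All 4 genes were detected together in 17 cells and only 1 of them in 17 others. The gate sum was exactly 3 UMIs in 27 cells and 10 or more in 36, with a median of 6 and a maximum of 50.

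At the edge of the rule, the 27 cells with 3 gate UMIs had 394 CPM of Lmod1 and 13181 CPM of the contractile list, and the 58 cells left out with 2 gate UMIs had 345 CPM and 10620 CPM. Cells with 10 or more gate UMIs had 1840 CPM of Lmod1 and 32966 CPM of the contractile list. On the other limit, the 37 members with 1 excluded UMI had 996 CPM of Lmod1, and the 21 cells left out with 2 excluded UMIs had 421 CPM. A further 65 barcodes passed the 4 gate genes but held 3 or more excluded UMIs, with a median of 2919 UMIs per cell.

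Pericyte RNA was low in most members and high in a few, with no UMI of 5 pericyte genes (Kcnj8, Abcc9, Vtn, Atp13a5 and Higd1b) in 67 of 107. In all, 9 cells passed on Myl9 alone, and they had 148 CPM of Lmod1 and 7559 CPM of the 5 pericyte genes. The other 98 cells had 1147 CPM and 643 CPM. A total of 11 members held 3 or more UMIs of the 5 pericyte genes, 6 of them among the 9. A pericyte gate, which needed 3 UMIs of these genes and set limits on other genes, was passed by 8 members.

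The label was checked against Lmod1, an actin nucleator of smooth muscle that the rule did not use. Lmod1 was at 1085 CPM in smooth muscle cells, 52.5 in 143 pericyte-gated cells, 13.1 in 2993 endothelial, 42.5 in 39 fibroblast and 0.285 in 5014 microglia cells. It had a UMI in 56 of 107 smooth muscle cells (52.3%, median depth 891 UMIs), against 0 of 1638 oligodendrocytes (median depth 757.5 UMIs), which allows a share of up to 0.183%, and 0.0199% of microglia (median depth 588 UMIs). It was above the pericyte level in 14 of 14 mice, although a gene that goes with the gate genes had to differ between these gates. In WT males its level was 746, 1340 and 844 CPM, and in THY-Tau22 males 555, 600 and 1195 CPM. In WT females it was 1436, 5663 and 1053 CPM, and in THY-Tau22 females 1799, 710, 1404, 1671 and 625.4 CPM. The groups overlapped in both sexes.

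Endothelial RNA was present in the members although the rule allowed at most 1 Cldn5 UMI. The summed level of 10 endothelial genes was 8846 CPM, against 9395 in pericytes and 23786 in endothelial cells, and all 10 had a UMI. Flt1, the VEGF receptor of endothelium, was detected in 64 of 107 members and Cldn5 in 25. No UMI of the list was held by 32 members, and 3 or more by 59 (55.1%), with a maximum of 55 in a cell with 0 excluded UMIs. The list had 954 UMIs over all members, against 939 of the 4 gate genes. Fibroblast genes summed to 362 CPM against 11158 in fibroblast cells, with 3 of 10 at 0, and microglial genes to 241 CPM against 31495 in microglia. The astrocyte list was at 3496 CPM and the oligodendrocyte list at 992 CPM. The part of this RNA in the levels below was not tested.

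**Figure D1:**
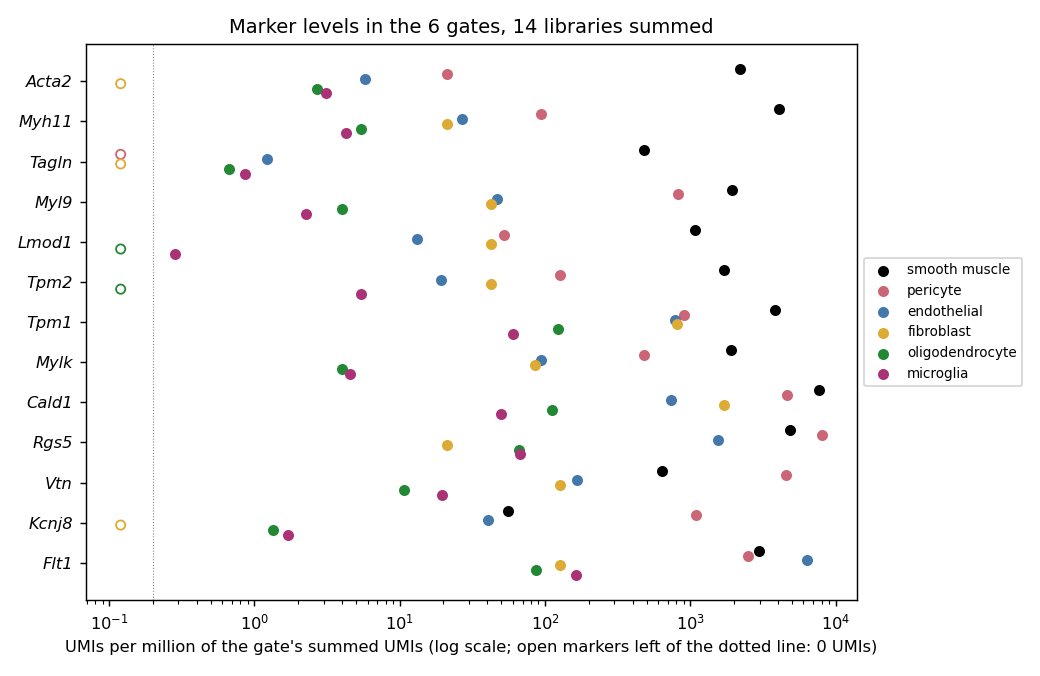
Level of 13 marker genes (CPM, log axis) in the summed cells of 6 gates over 14 libraries, with open markers for genes at 0. Lmod1, which no gate used, sits at 1085 in smooth muscle cells and at 52.5 or less in the other gates, while Kcnj8 and Vtn are highest in pericytes and Flt1 in endothelial cells.

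Comparison with pericytes is a description, because the gates divide cells on their own counts, and 8 cells were in both. In the pericyte gate Myh11 had 9 UMIs in 9 cells and Acta2 2 UMIs in 2 cells. A contractile gene that goes with them had to differ between the gates, and the part of this in the ratios below was not tested. Over all 3573 genes with at least 10 UMIs in the 2 gates together, 12.1% were at least 2-fold higher in smooth muscle cells and 13.7% at least 2-fold lower. Of 23 contractile genes outside the rule, 19 could be compared. Of these, 11 were at least 2-fold higher and 0 were at least 2-fold lower, with a median log2 ratio of 1.71 beside -0.02 over all genes.

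After Lmod1, the higher contractile genes included proteins of the thin filament and the cytoskeleton. Tpm2, a tropomyosin of the thin filament, was at 1697 CPM in smooth muscle cells and 126 in pericytes, 13.5-fold higher (95% interval 7.53 to 26.5). Tpm1 was at 3848 CPM and 903 CPM, 4.26-fold higher (3.37 to 5.44). Mylk, the myosin light chain kinase, was at 1892 CPM and 483 CPM, 3.92-fold higher (2.83 to 5.52). Des, the muscle intermediate filament desmin, rested on 31 and 2 UMIs, a ratio of 13.7 (3.48 to 118). Actn1, an actinin that anchors actin, was 5.65-fold higher (2.19 to 18.6), and Flna, a filamin, 3.89-fold (1.44 to 13.1). Sncg, a synuclein also found in smooth muscle, rested on 32 and 2 UMIs (ratio 14.1, 3.61 to 122), and Csrp1, a cytoskeletal LIM protein, on 21 and 1 (18.5, 2.98 to 767). Pdlim3, another LIM protein, had 12 UMIs and 0. Each of Tpm1, Tpm2 and Mylk was above pericytes in 14 of 14 mice. Cald1, which binds actin and tropomyosin, was abundant in both cell types, at 7724 and 4629 CPM, 1.67-fold higher (1.48 to 1.88). Vcl (0.747, 0.404 to 1.37) and Smtn (0.883, 0.289 to 2.70) had intervals that included 1.

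Serum response factor drives many contractile genes through the CArG box, here CC, 6 bases of A or T, and GG, which reads the same pattern on both strands. In RefSeq promoter windows (GRCm38.p6, 250 bases before to 50 after the start), 4 of 22 contractile genes with an entry held the box, and of the gate genes Myl9, 1 of 2. Over all 27025 genes with an entry, 1.81% held it. Myh11 and Tagln had no entry. The stretches below are shown because they carry the box, in capitals, of genes whose levels are given here. A match is a description of these letters.
Myl9, chr2:156775273-156775342, plus strand: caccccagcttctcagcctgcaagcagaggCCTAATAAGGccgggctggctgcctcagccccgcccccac
Filip1l, chr16:57549150-57549219, plus strand: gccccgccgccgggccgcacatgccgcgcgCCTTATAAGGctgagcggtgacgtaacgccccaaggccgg
Vcl, chr14:20929148-20929210, plus strand: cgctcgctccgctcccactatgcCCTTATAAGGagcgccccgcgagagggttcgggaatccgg
Myl6, chr10:128493020-128493089, minus strand: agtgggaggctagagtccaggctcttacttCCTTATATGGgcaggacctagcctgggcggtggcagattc
Ldb3, chr14:34588677-34588746, minus strand: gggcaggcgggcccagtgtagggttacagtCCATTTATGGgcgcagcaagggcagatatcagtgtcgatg
Of these, Filip1l, a relative of filamin A interacting protein, was 2.75-fold higher than in pericytes (2.13 to 3.57), Myl6, the essential myosin light chain, 1.89-fold (1.20 to 3.04), Vcl had a ratio with an interval that included 1, and Ldb3 had 3 UMIs and 0. The box began 161 bases before the start in Myl9, 227 in Vcl, 62 in Filip1l, 50 in Myl6 and 35 in Ldb3.

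Among the 20 genes with the largest ratio over pericytes, those outside the lists of contractile genes held further cytoskeletal and matrix genes. Nexn, an actin-binding protein, was at 779 and 52.5 CPM, 14.8-fold higher (6.11 to 46.9), and Dstn, an actin-depolymerizing factor, at 1493 and 273 CPM, 5.47-fold higher (3.599 to 8.63). Timp3, a matrix metalloproteinase inhibitor, was at 2754 and 567 CPM, 4.86-fold higher (3.63 to 6.62), and Vim, an intermediate filament, 4.38-fold higher (2.81 to 7.10). Pde3a, a cAMP phosphodiesterase, was 3.67-fold higher (1.98 to 7.33). At the other end, Pdgfrb, the mural receptor for PDGF-B, was at 102 and 682 CPM, a ratio of 0.149 (0.071 to 0.285), and Slc12a2, a chloride cotransporter, at 176 and 756 CPM, a ratio of 0.233 (0.133 to 0.391).

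**Figure D2:**
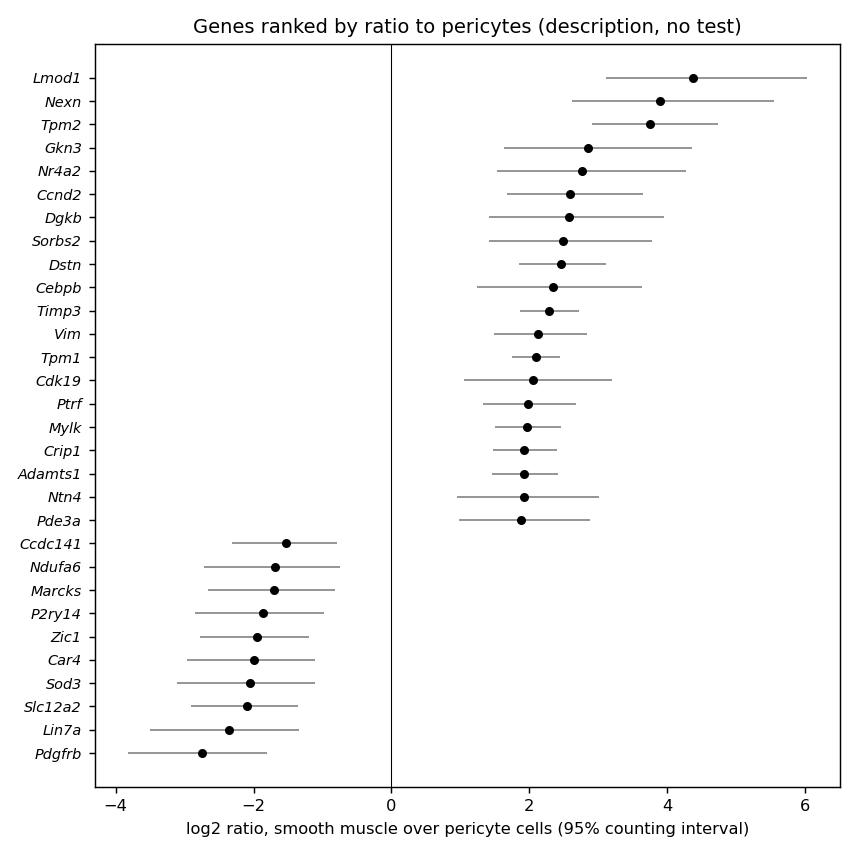
Log2 ratio of the summed level in smooth muscle over pericyte cells for the 20 genes highest and 10 genes lowest by ratio, with 95% counting intervals. Lmod1 and Nexn lie highest, with ratios of 20.7 and 14.8, and Pdgfrb lowest, at 0.149.

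Genes that control tone were mixed. For calcium handling, Pln, the inhibitor of the sarcoplasmic calcium pump, rested on 14 and 1 UMIs (ratio 12.4, 1.88 to 523), and Atp2a2, that pump, was 1.80-fold higher (1.12 to 2.97). Casq2, the calcium store protein, was lower, with a ratio of 0.501 (0.279 to 0.879). In the nitric oxide and cGMP list, 3 of 8 genes compared were at least 2-fold higher (Prkg1, Pde3a and Mrvi1) and 0 at least 2-fold lower. Over all genes these shares were 12.1% and 13.7%. The median log2 ratio of the list was 0.88, beside -0.02 over all genes. Of its members, the soluble guanylate cyclase subunit Gucy1b3 was lower (0.596, 0.417 to 0.846) and Gucy1a3 had an interval that included 1 (1.08, 0.698 to 1.67). Ppp1r12a, the targeting subunit of myosin phosphatase, was 1.86-fold higher (1.30 to 2.71). Of 18 vasoactive receptors, 7 had no UMI in smooth muscle cells and 3 could be compared, so that most could not be compared at this depth. Npy1r, a receptor for neuropeptide Y, rested on 14 and 6 UMIs, Ednra on 5 and 11, and Ednrb, like Ednra an endothelin receptor, on 6 and 12, with intervals that included 1. Rgs5, a regulator of G protein signalling typical of mural cells, was lower, at 4849 and 8062 CPM (0.602, 0.537 to 0.673), and so was Rgs4 (0.423, 0.291 to 0.608). Rock1, a protein kinase that acts on the actin cytoskeleton, was 2.17-fold higher (1.58 to 3.01), and Map3k7cl 7.73-fold (2.76 to 29.9). Kcnab1, a potassium channel subunit, had 11 UMIs and 0. Kcnj8 and Abcc9, the pore and the receptor of the vascular KATP channel, were at 55.6 and 74.2 CPM, and both helped to define the pericyte gate.

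Notch, growth factor and matrix genes held ratios in both directions. Over all 3573 genes, 12.1% were at least 2-fold higher and 13.7% at least 2-fold lower, so the counts below are descriptions only. Of 15 Notch and transcription factor genes compared, 3 were at least 2-fold higher and 1 lower, and Notch3 itself had an interval that included 1 (0.773, 0.349 to 1.69). Epas1, a hypoxia-regulated factor, was above pericytes in 14 of 14 mice, 1.82-fold (1.20 to 2.78). Of 18 matrix genes, 3 were at least 2-fold higher and 3 lower. Lama4 (0.457, 0.228 to 0.880) and Lamc1 (0.389, 0.173 to 0.819), laminin chains of the basement membrane, were among the lower ones. Mgp, a calcification inhibitor, was at 1038 and 924 CPM, close to each other (1.12, 0.843 to 1.504). Jag1, a Notch ligand, was 2.65-fold higher (1.01 to 8.16), and Heyl, a Notch target, was lower (0.126, 0.014 to 0.549). Klf4, a factor that represses contractile genes, was 1.74-fold higher (1.39 to 2.18). Of 14 growth factor genes, 2 were at least 2-fold higher and 5 lower. Among them Id3, a target of BMP signalling, was 2.31-fold higher (1.66 to 3.27) and Igf1r, the IGF-1 receptor, was lower (0.464, 0.260 to 0.805).

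Genes of activation and of other states were compared in the same way, beside the same shares over all genes (12.1% higher and 13.7% lower). Of 15 immediate early genes, 3 were at least 2-fold higher and 0 lower. Fos was at 5517 CPM in smooth muscle cells and 4272 in pericytes (1.29, 1.14 to 1.47), and Atf3, a stress-induced factor, was 3.39-fold higher (2.62 to 4.43). Of 7 genes linked to the synthetic state, in which smooth muscle cells lose contractile genes, 3 were at least 2-fold higher (Vcam1, Thbs1 and Vim) and 1 lower (Spp1). Vcam1 had 11 UMIs and 0, and Thbs1 10 and 0. Of 9 inflammation genes, 1 was at least 2-fold higher and 3 lower, among them Cxcl12, a chemokine of vessel walls (0.417, 0.312 to 0.552, below pericytes in 13 of 14 mice). Of 7 clearance genes, 0 were at least 2-fold higher and 2 lower (Lrp1 and Lgmn), each on 9 or fewer UMIs in either cell type. Apoe, the lipid carrier, had an interval that included 1 (0.779, 0.510 to 1.19). Hbb-bs, a haemoglobin gene of red blood cells, had 15 UMIs and 0.

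The share of smooth muscle cells among kept barcodes was 0.515%, 0.389% and 0.630% in WT males and 0.553%, 0.304% and 0.287% in THY-Tau22 males. In WT females it was 0.573%, 0.446% and 0.548%, and in THY-Tau22 females it ran from 0.102% over a median of 0.348% to 0.641%. The groups overlapped in both sexes. The means were 0.381% ± 0.149 (SD, n = 3) in THY-Tau22 and 0.511% ± 0.121 (SD, n = 3) in WT males, and 0.381% ± 0.228 (SD, n = 5) and 0.522% ± 0.0671 (SD, n = 3) in females. The difference, THY-Tau22 minus WT, was -0.130 percentage points in males (two-sided exact permutation test, n = 3 and 3, p = 0.3, smallest possible p 0.1) and -0.141 in females (exact permutation, n = 5 and 3, p = 0.393, smallest possible p 0.0357). As an alternative, the share was taken of smooth muscle plus pericyte cells, with the 8 cells that passed both gates counted once in each. This share was 59.1%, 58.3% and 64.3% in WT males and 50%, 50% and 17.4% in THY-Tau22 males, without overlap. The difference was -21.4 percentage points in males (exact permutation p = 0.1, the smallest possible) and -14.8 in females (exact permutation p = 0.357). Pericyte-gated cells numbered 9, 5 and 5 in WT males and 9, 6 and 19 in THY-Tau22 males. Fewer cells in the tissue and poorer recovery from it cannot be told apart.

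The summed mitochondrial mRNAs, a measure of RNA quality, were 0.436%, 0.655% and 0.363% of UMIs in WT males and 1.19%, 0.984% and 2.36% in THY-Tau22 males, without overlap (difference 1.03 percentage points, exact permutation p = 0.1, the smallest possible). Their 2 ribosomal RNAs, mt-Rnr1 and mt-Rnr2, went the other way, at 16.9% to 24.7% in WT males and 9.96% to 12.5% in THY-Tau22 males. The pericyte list also differed without overlap in males, at 0.0976% to 0.119% in WT and 0.156% to 0.657% in THY-Tau22, with a UMI for 12 of 12 of its genes over all members. In females the mitochondrial mRNAs overlapped (difference -0.182, exact permutation p = 0.571). Median UMIs per cell did not separate the genotypes in males (difference -81.3, exact permutation p = 0.9) or in females (185, exact permutation p = 0.393). Over these 6 tests the smallest adjusted p was 0.589.

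**Figure D3:**
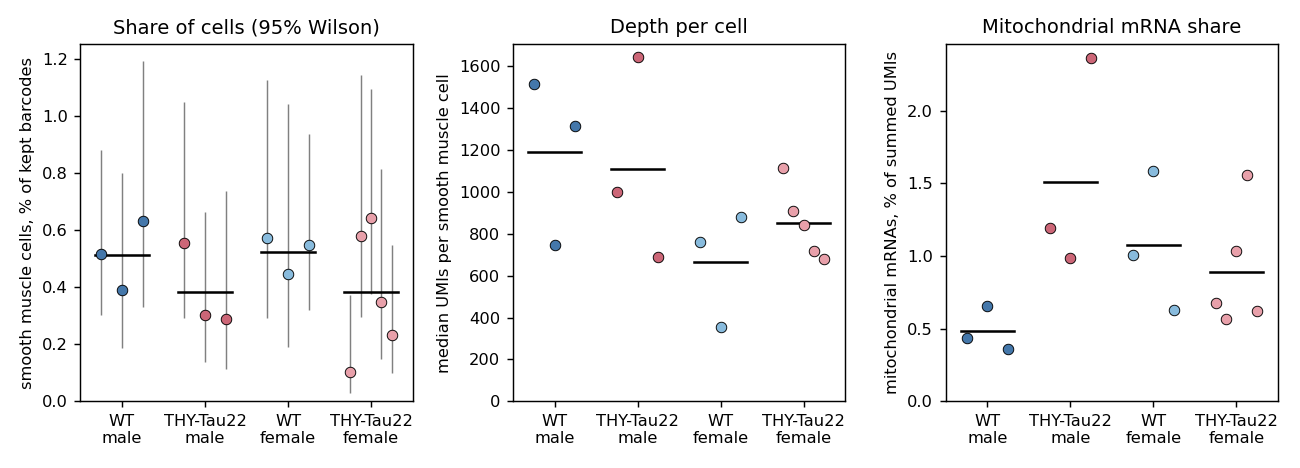
Share of smooth muscle cells with 95% Wilson intervals, median UMIs per smooth muscle cell, and mitochondrial mRNA share, 1 point per mouse and a line for each group mean. Shares and depths overlap between genotypes, and the mitochondrial mRNA share does not overlap between WT and THY-Tau22 males.

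Expression was compared between genotypes on UMIs summed per mouse, for the 12 mice with at least 5 members. THY-Tau22 male replicate 3 with 4 cells and THY-Tau22 female replicate 1 with 2 cells were therefore not in the fit. After the filter on low counts 113 genes were tested with edgeR's quasi-likelihood test, so most genes of the cell type were not measured deeply enough to be tested. No gene passed an adjusted p of 0.05 with a log2 fold change of at least 0.5 (0% of 113) in males, in females, in both sexes together, in the interaction of sex and genotype, or between the sexes. At an unadjusted p under 0.05 there were 12, 7, 11, 4 and 7 genes. With DESeq2 the counts of calls were also 0 and the unadjusted counts 7, 4, 10, 1 and 7. The 3 gate genes among the 113 are not read as tested. The p-values measure the spread between these mice. The levels per mouse below and the counts of separate groups also include the 2 mice outside the fit.

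The count of 0 depended on whether a code in the sample titles, which the main fit leaves out, was added to the fit. The titles of WT female replicate 3 and THY-Tau22 female replicate 5 hold MB22 and those of all other mice MB21. The labels do not say what the code marks. In the smooth muscle cells of these 2 females mt-Rnr1 and mt-Rnr2 took 19.2% and 19.0% of UMIs, against 4.04% to 14.1% in the other 6 females. High values were not limited to MB22, since in the males these RNAs took 16.9% to 24.7% in WT and 9.96% to 12.5% in THY-Tau22. With the code as a term in the fit, chosen after seeing the data, edgeR called 4 of 113 genes (3.54%) for THY-Tau22 against WT males and 0 (0%) for the same contrast in females. It called 2 (1.77%) over both sexes, 4 (3.54%) for the interaction and 4 (3.54%) between the sexes. In males these were Rock1 (log2 fold change -2.28, edgeR adjusted p = 0.0268), Gm42418 (-1.72, 0.0268), Ptprb (-1.96, 0.0453) and mt-Rnr1 (-1.45, 0.0453), and over both sexes Rock1 (-1.75, 0.00348) and Nexn (-1.78, 0.0307). With the MB21 mice only, 105 genes were tested. The male contrast then had 3 calls (2.86%), the female contrast 1 (0.952%) and their mean 0 (0%), and there were 7 (6.67%) for the interaction and 7 (6.67%) between the sexes. The term was set by 1 WT and 1 THY-Tau22 female. All males hold MB21, so it cannot adjust the male contrast. The 4 male fold changes moved by less than their standard errors with the term. The 4 groups share 1 estimate of the spread, which the term can change, and its part in the male calls was not tested.

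The 5 genes with the smallest p in males are given as values only. Rock1 was at 1837, 1936 and 1013 CPM in WT males and 277, 480 and 597 CPM in THY-Tau22 males, with all THY-Tau22 males lower. These levels of Rock1 rested on 32, 13 and 12 UMIs in WT and on only 3, 4 and 2 UMIs in THY-Tau22 males. Its log2 fold change was -2.27 (SE 0.697, edgeR adjusted p = 0.169). Over 24 alternatives the log2 fold change of Rock1 in males ran from -6.98 with no excluded UMI to -0.63 with the shared library as THY-Tau22 male. Ptprb, an endothelial receptor phosphatase, was at 1837, 1787 and 1688 CPM against 647, 360 and 896 CPM (-1.96, SE 0.624, edgeR adjusted p = 0.169). Its levels rested on 32, 12 and 20 UMIs in WT and on 7, 3 and 3 UMIs in THY-Tau22 males. B2m, the light chain of MHC class I, was at 344, 893 and 422 CPM against 1757, 2160 and 1195 CPM (1.72, SE 0.596, edgeR adjusted p = 0.226). The mitochondrial gene mt-Nd1 (1.49) and the gene model Gm42418 (-1.71) came next, each with an edgeR adjusted p of 0.312. Groups that do not overlap were common in males whatever the gene: 19.5% of the 113 genes were entirely separate, 12.4% higher and 7.08% lower in THY-Tau22. Mitochondrial mRNA, mitochondrial rRNA and pericyte RNA also differed without overlap between these mice, as given above. So did the neuron list (0.0298% to 0.0422% of UMIs in WT, 0.0462% to 0.0600% in THY-Tau22) and the microglia list (0 in all WT, 0.0120% to 0.149% in THY-Tau22). These 2 lists held only 47 and 26 UMIs over all members of both sexes. The gap between the neuron ranges was smaller than 1 UMI in each of these males. The matrix list was also separate, at 1.12% to 1.18% of UMIs in WT and 1.37% to 1.64% in THY-Tau22 males. The part of all these in the male values was not tested. The endothelial list ran from 0.953% to 1.14% of UMIs in WT and from 0.0896% to 1.22% in THY-Tau22 males, with overlap.

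The gate genes are given without a test, since their UMIs chose the members. In males Myh11 was at 4534, 4914 and 3377 CPM in WT and 1942, 2280 and 3286 CPM in THY-Tau22, and Acta2 at 1722, 2382 and 338 CPM against 1110, 2160 and 5974 CPM.

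In females, 3.54% of genes were separate, 0% higher and 3.54% lower. Tax1bp1, an autophagy adaptor, was at 1975, 5285 and 1492 CPM in WT and 450, 852, 991, 1114 and 625.4 CPM in THY-Tau22 (log2 fold change -1.41, SE 0.490, edgeR adjusted p = 0.700). Mgp was at 2513, 378 and 1229 CPM against 450, 426, 413, 0 and 1042 CPM, with overlap (-1.53, SE 0.651, edgeR adjusted p = 0.700). Nexn was at 718, 5285 and 702 CPM against 450, 710, 661, 557 and 0 CPM, with overlap (-1.61, SE 0.720, edgeR adjusted p = 0.700). WT female replicate 2, with 5 cells and 2649 UMIs, held the high values of Tax1bp1 and Nexn, and without it the log2 fold change of Nexn was -0.40. Rgs5 (1.08) and Nes, an intermediate filament (1.38), had the next smallest p, and Nes ran from 0.83 without THY-Tau22 female replicate 2 to 3.37 without WT female replicate 3.

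**Figure D4:**
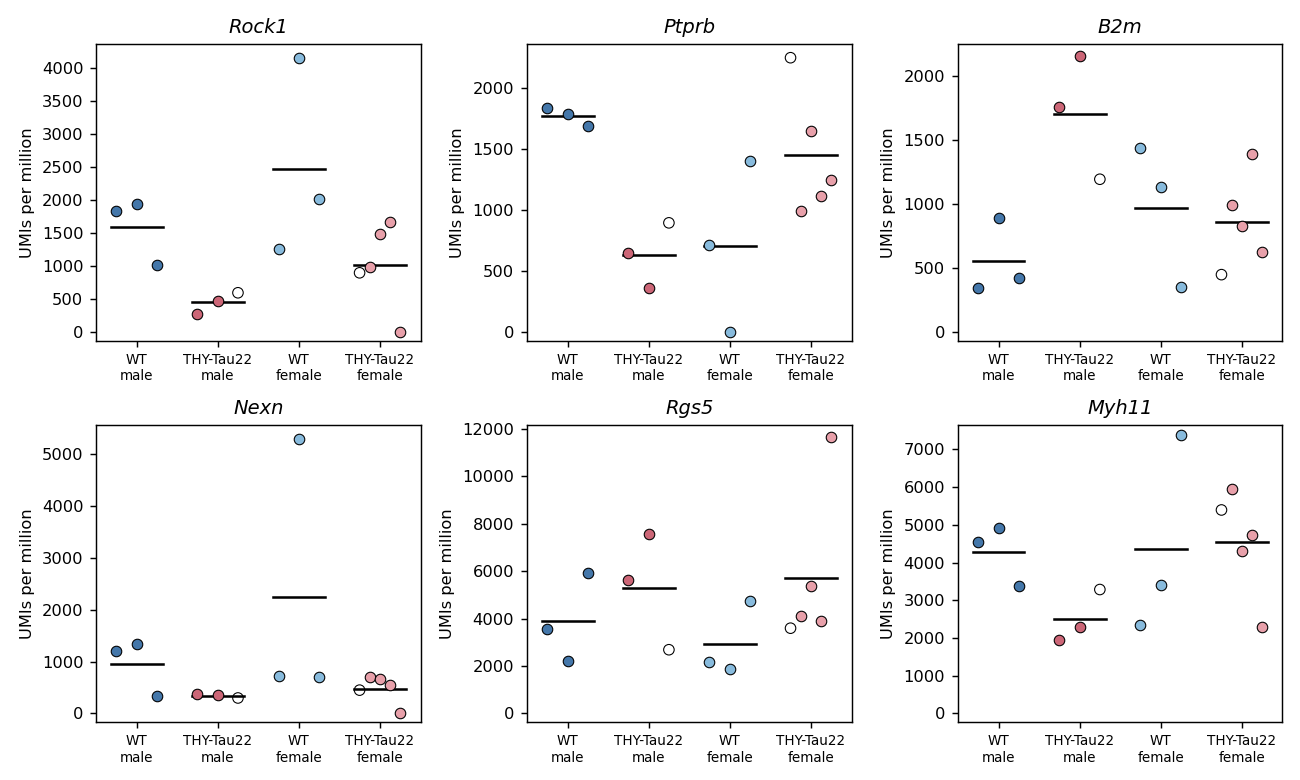
Level (CPM) of 6 genes in each mouse, with a line for each group mean and open markers for the 2 mice not in the fit. Rock1 and Ptprb are lower and B2m is higher in all THY-Tau22 males than in all WT males, and all 6 genes overlap in females.

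Over both sexes the smallest p was again that of Rock1 (log2 fold change -1.65, SE 0.437, edgeR adjusted p = 0.0525), just short of the threshold. In females Rock1 was at 1257, 4153 and 2019 CPM in WT and 899, 994, 1487, 1671 and 0 CPM in THY-Tau22, with overlap. The call was made without WT female replicate 1 (edgeR adjusted p = 0.0263) and without THY-Tau22 female replicate 4 (0.0433). With any 1 mouse left out the edgeR adjusted p ran from 0.0263 to 0.646. Over 24 alternatives the log2 fold change ran from -4.01 to -0.84. Nexn followed (-1.58, SE 0.556, edgeR adjusted p = 0.389), then Ptn (0.91), Ly6c1 (1.03) and Nfkbia (0.97). For the interaction, Ptprb had the smallest p (male minus female difference -2.45, SE 0.832, edgeR adjusted p = 0.589). Between the sexes, Dek (1.47) and Tpm2 (-0.94, lower in males) had the smallest p, each with an edgeR adjusted p of 0.488.

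Of the 23 contractile genes, 6 passed the filter (Cald1, Filip1l, Lmod1, Mylk, Tpm1 and Tpm2), and 0 of 6 were called in any contrast. Their median log2 fold change was -0.67 in males and -0.50 in females, beside -0.07 and 0.08 over all genes tested. The male value rests on 2 THY-Tau22 mice. Summed over all 23 genes, the list took 2.05%, 2.34% and 1.62% of UMIs in WT males. In THY-Tau22 males it took 1.78%, 1.43% and 3.41%, with overlap, and the highest was replicate 3, which was not in the fit. In females it took 2.33% to 3.70% in WT and 1.94% to 2.60% in THY-Tau22, also with overlap. Of 13 mitochondrial mRNAs, 5 were tested and 0 called, with a median of 0.90 in males and 0.09 in females. Of 30 matrix genes, 5 were tested and 0 called, with medians of -0.07 and -0.12, although the summed matrix list was higher in all THY-Tau22 males, as given above. Of 16 immediate early genes, 8 were tested and 0 called, with medians of 0.15 and -0.21.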

How the data were processed

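Drop-seq libraries of mouse cortex, 1 per mouse, were analysed from tables of UMI counts that the authors deposited without normalization, 3000 barcodes per table. The submitters' processing notes name mm10; the pipeline version and annotation were not given in the sources used here. Columns of per-sample values that were not used numbered 0. Members and gene lists were chosen with earlier results of these data known. Cells were gated in Python 3.11.15 (numpy 2.4.6, pandas 2.3.3, scipy 1.17.1). The study's 5% mitochondrial limit was not applied: counted without mt-Rnr1 and mt-Rnr2 it kept all 107 members, and counted over all mitochondrial genes it kept 5. The study used a Poisson regression with cells as replicates, but cells of a mouse are not replicates, so UMIs were summed per mouse and tested in R 4.3.3 with edgeR 4.0.16 (filterByExpr by group, TMM, quasi-likelihood test, 1 mean per sex and genotype, Benjamini-Hochberg over all genes tested, called at adjusted p under 0.05 and absolute log2 fold change of at least 0.5). DESeq2 1.42.0 was an alternative. A code in the sample titles (MB21 or MB22) was added as a term after seeing the data. Shares, depths and mitochondrial mRNA were compared with two-sided exact permutation tests over mice. Ratios between gates carry exact conditional 95% intervals. Genes with reads shared with a paralog are uncertain.

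Named genes were the label markers, members of the lists, up to 5 called genes per direction and contrast or, where fewer were called, the 5 with the smallest p as values only, and the 20 genes outside the gates with the largest ratio over pericytes among those with at least 50 UMIs; the 10 lowest were added after values were seen. The edgeR script was tested on simulated data for the contrast over both sexes in 2 designs, both kept. In the design run first, where many abundant genes changed with uneven signs, the share of false calls went above the nominal level. A second design with balanced signs and fewer changed genes was then written, and it gave no false call. Calls by this fit can therefore be too many when much of the transcriptome shifts. The result of 1 gene is not reported here.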

Additional observations from a re-analysis of the deposited data

Results flagged for a closer look

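Among the THY-Tau22 females, the only group of more than 3 mice, 3 values lay far from the other 4 mice. Chance marks about 1 in 20 groups, and 26 were examined. Nes was at 2272 CPM in replicate 2, against 450 to 909 CPM in the others. Rgs5 was at 11674 CPM in replicate 5, against 3597 to 5369 CPM. Sptbn1, a spectrin of the membrane skeleton, was at 450 CPM in replicate 1, against 1704 to 2148 CPM, and that mouse had 2 cells, so this level rests on 1 UMI.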

How the results depend on the processing

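No paired analysis was possible because the replicate numbers only follow the order of accession and so pair no mice. The counts of called genes moved most with the code in the sample titles, an alternative chosen after seeing the data. With it as a term they were 4 in males, 0 in females, 2 over both sexes, 4 for the interaction and 4 between the sexes, and with the MB21 mice only 3, 1, 0, 7 and 7, of which 1 of the interaction calls and 1 of the sex calls are gate genes. Otherwise they were 0 in all 5 contrasts and remained 0 with DESeq2, without the filter on low counts, with the 5% mitochondrial limit (which kept all members), with all 16 tables and with the shared library as THY-Tau22 male. Leaving out 1 mouse at a time gave 0 to 0 calls in males, 0 to 1 in females, both sexes and between the sexes, and 0 to 3 for the interaction. Without WT female replicate 3, Gm42418 was called in 3 contrasts, with Ptprb and mt-Rnr1 in the interaction. With 0 excluded UMIs, 1 gene was called in males (Gm42418) and 2 in both sexes (Gm42418 and Flt1). With the shared library as WT male, 1 gene was called in both sexes (Rock1). Chosen after seeing the data, leaving out members with 3 or more pericyte UMIs gave 1 call in males (Rock1, edgeR adjusted p = 0.0250, against 0.0250 to 0.887 over all 24 alternatives), and fits with all 14 mice or without the mitochondrial rRNAs gave 0. A limit of at least 5 gate UMIs could be fitted for females only, with 0 calls, and at least 10 cells per mouse could not be fitted, since 1 mouse per group remained in 3 groups. Leaving out a THY-Tau22 male leaves 1 in the fit, assumed to vary like the others.

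The difference in median UMIs per cell in males turned to 103 with 5 gate UMIs and 7.92 with the shared library as WT male, and ran from -347 to 129 with 1 mouse left out. In females it was 575 with 5 gate UMIs (exact permutation p = 0.0357) and -0.0417 with 0 excluded UMIs, and ran from 31.0 to 293. The difference in mitochondrial mRNA ran from 0.604 to 1.29 percentage points in males and from -0.403 to 0.0733 in females, and that in share from -0.215 to -0.0703 and from -0.206 to -0.0713. With 5 gate UMIs the female log2 fold changes of Nexn and Rgs5 turned to 0.0017 and -0.12. Over pericytes, the log2 ratio of Smtn turned to 2.24 with 0 excluded UMIs and that of Vcl to 0.13 in cells with no endothelial UMI; of 163 alternative ratios 137 stayed within the 95% interval of the main ratio. The cause of these shifts was not tested. Depth limits all of this: 113 genes could be tested in 107 cells.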
